A study of Mus musculus with 6 samples.

Results

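Omega-oxidation is the route by which fatty acids are oxidised from the methyl end. A CYP4 cytochrome P450 in the endoplasmic reticulum adds a hydroxyl group to the last carbon, and the alcohol is taken through an aldehyde to a dicarboxylic acid that peroxisomes can shorten. Each P450 cycle needs electrons from NADPH, which P450 reductase hands over. In liver the route is minor when mitochondrial oxidation copes, and its Cyp4a genes are classic targets of the lipid-activated receptor PPARA. The 5 genes described here were chosen by symbol among the 389 genes of the deposited table: the omega-hydroxylase genes Cyp4a14, Cyp4a31 and Cyp4f14, the fatty aldehyde dehydrogenase gene Aldh3a2 and the P450 reductase gene Por. All 5 had a row, and none was lost to a filter on low values.

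The table compared liver from mice lacking Usp28 in every tissue (KO, 3 samples) with liver from wild-type mice (WT, 3 samples). USP28 is a deubiquitinase, and the series title ties it to PPARγ expression and diet-induced steatohepatitis. Every animal, WT included, was fed a diet deficient in methionine and choline for 4 weeks from 8 weeks of age, so a normally fed liver was not analysed here. The sources used here do not give strain, sex or whether each sample is a separate animal, and p-values therefore measure the spread between these samples, which may be partly technical.

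The 389 genes were already a selection on this same comparison, whose log2 fold changes in the authors' deposited table were 1.004 or more in size and whose FDR there was 0.0494 or less. They come from about 16198 genes tested, so having a row is itself an outcome of that selection, also in the counts of rows below. The difference between KO and WT in each of the 5 genes is thus a description of selected genes, and passing a test is no evidence beyond that selection. Recovered depth was 20350000 to 24160000 reads in WT and 20860000 to 22130000 in KO. Usp28 had no row, so the knockout itself could not be checked in these libraries. Of 6 hepatocyte markers, 0 had a row, so the labelled tissue was not checked either. WT replicate 3 stood apart from the other WT libraries: the listed genes took 5.45% of its reads, against 8.75% and 8.81% in WT replicates 1 and 2 and 3.73% to 3.77% in KO. Its 6 listed markers of recruited macrophages, of 10 in the list, summed to 168 FPKM, against 67.1 and 30.8 in WT replicates 1 and 2 and 20.7 to 28.9 in KO. Of 4 neutrophil markers only Lcn2 had a row, and 1 marker alone does not identify a cell type. Lcn2 stood at 120 FPKM in WT replicate 3, against 28.8 and 33.9 in the other WT libraries and 8.02 to 12.4 in KO. Whether these markers stand for more such cells, and any part of such cells in the results below, was not tested. In bulk liver fewer cells of a type and less RNA per cell cannot be told apart.

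The promoters below are those of the members with an entry in the RefSeq table: Aldh3a2 and Por, lower in KO, and Cyp4f14, higher. They are the 250 bases before the most upstream start in the RefSeq table (GRCm38.p6), written 5′ to 3′ on the gene's strand. Capitals mark CCAAT or GGGCGG (a GC box) on either strand. Cyp4f14 lies at chr17:32917357-32917606 (minus strand), Aldh3a2 at chr11:61267187-61267436 (minus strand) and Por at chr5:135688895-135689144 (plus strand). The Aldh3a2 and Por windows lie inside the GENCODE gene spans given below. For these genes the RefSeq start used here is thus downstream of the GENCODE gene start. Cyp4a14 and Cyp4a31 had no entry in the RefSeq table, so their promoters were not searched.
Cyp4f14: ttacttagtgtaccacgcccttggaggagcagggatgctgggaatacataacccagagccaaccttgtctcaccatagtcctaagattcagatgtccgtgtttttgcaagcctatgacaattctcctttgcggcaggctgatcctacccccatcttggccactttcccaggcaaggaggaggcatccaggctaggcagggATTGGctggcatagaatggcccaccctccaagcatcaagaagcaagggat
Aldh3a2: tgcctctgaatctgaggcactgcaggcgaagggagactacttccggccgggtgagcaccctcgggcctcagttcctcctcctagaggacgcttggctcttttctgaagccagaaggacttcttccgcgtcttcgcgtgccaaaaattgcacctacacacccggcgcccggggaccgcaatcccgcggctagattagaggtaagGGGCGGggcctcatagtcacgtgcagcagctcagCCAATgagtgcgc
Por: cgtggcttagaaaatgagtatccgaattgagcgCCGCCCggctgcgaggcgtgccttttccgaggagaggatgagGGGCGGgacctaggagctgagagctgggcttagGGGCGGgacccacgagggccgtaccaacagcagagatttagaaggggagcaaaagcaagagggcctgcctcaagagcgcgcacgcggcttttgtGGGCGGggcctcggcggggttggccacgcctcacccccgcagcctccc

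The Por promoter held 4 GC boxes, the first 217 bases before the start and the last 48 bases before it. The Aldh3a2 promoter held 1 GC box at 47 bases and a CCAAT at 13 bases before the start, and that of Cyp4f14 held a CCAAT, on the opposite strand, at 50 bases. GC content ran from 52.8% in Cyp4f14 through 61.2% in Aldh3a2 to 65.6% in Por. Over 27025 promoters of the same length, 33.0% held a GC box and 34.5% a CCAAT. The direct repeat AGGNCANAGGNCA, a relaxed form of the site that PPARA shares with other nuclear receptors, and its half-site AGGTCA were searched on both strands. These letters were in none of the 3 windows, nor were those of the TATA box TATAAA. The repeat was in 0.337% of all windows, AGGTCA in 13.8% and TATAAA in 13.0%. The half-site overlaps the repeat when its open base is T.

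Cyp4a14, Cyp4a31, Aldh3a2 and Por were lower in KO, and Cyp4f14 was higher. In edgeR's quasi-likelihood test all 5 passed a Benjamini-Hochberg adjusted p of 0.05 within the table, as did 99.7% of its genes, so nothing can be read from that count. With adjustment over 16198 genes, the number of genes tested that the authors' p-values and FDR point to, 0 of the 5 passed in edgeR (5 had an unadjusted p under 0.05), against 1.29% of the listed genes. On that footing 0 members passed in limma, against 2 of the 389 listed genes. In DESeq2 every member but Por passed, against 153 of the 389 listed genes. The 4 lower members compare with 59.9% of listed genes called lower, and the higher one with 39.8% called higher. FPKM values of KO and WT did not overlap in any of the 5, as in 93.3% of listed genes. The median log2 fold change was -1.57 over the 5 members. It was -1.59 over the 4 lower members, against -1.43 over all 233 listed genes lower in KO.

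Cyp4a14 (ENSMUSG00000028715, GRCm38 chromosome 4, 115486200 to 115496142, minus strand) encodes a mouse fatty acid omega-hydroxylase that acts on medium-chain fatty acids such as lauric acid. It stood at 4928, 4883 and 1009.9 FPKM (fragments scaled to transcript length and to library depth) in WT replicates 1, 2 and 3, and at 972.0, 951.9 and 949.5 FPKM in KO replicates 1, 2 and 3. WT replicates 1 and 2 were high and nearly equal, while WT replicate 3 lay with the KO libraries, only 1.05 times their mean. Cyp4a14 had the second highest WT mean of the table by FPKM. It took 1.23% and 1.22% of all reads in WT replicates 1 and 2, 0.252% in WT replicate 3, and 0.237% to 0.243% in KO. The WT mean was 3607 ± 2249 FPKM and the KO mean 958 ± 12.4 FPKM (SD, n = 3 for both), a 3.77-fold difference. The edgeR log2 fold change was -1.91 (SE 0.58, adjusted p = 0.0126). It was -2.36 (SE 0.13, edgeR adjusted p = 3.19e-05) when WT replicate 3 was left out. Dropping the 1 WT library at the KO level was bound to enlarge the fold and shrink the SE. In that fit 372 of the 389 listed genes passed, so its p-value adds no support. The KO mean was 5.12-fold below the mean of WT replicates 1 and 2. It missed the threshold when KO replicate 2 was left out (-1.91, edgeR adjusted p = 0.0573), and with RLE factors, which take most listed genes as unchanged (-1.23, edgeR adjusted p = 0.0757).

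**Figure D1:**
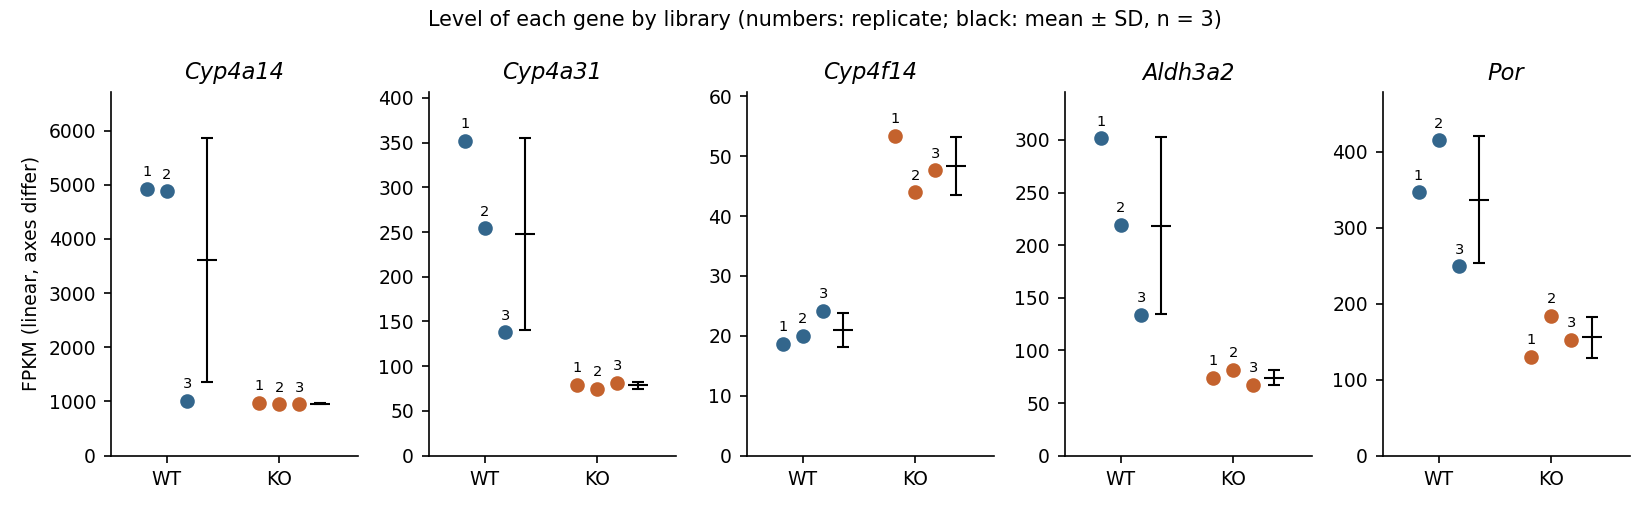
FPKM of the 5 genes in each library on linear axes that differ between panels, with WT in blue, KO in orange, replicate numbers above the points, and black marks for the mean ± SD (n = 3). In Cyp4a14, WT replicate 3 (1009.9 FPKM) sits beside the KO points (949.5 to 972.0), whereas in the other panels the WT points stand clear of the KO points.

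Cyp4a31 (ENSMUSG00000028712, chromosome 4, 115563649 to 115579015, plus strand) encodes a second CYP4A hydroxylase and lies 67.5 kb from Cyp4a14, with Cyp4a10 (115518264 to 115533649) between them. It stood at 352.2, 254.3 and 137.9 FPKM in WT replicates 1, 2 and 3, and at 79.3, 74.6 and 81.6 FPKM in KO replicates 1, 2 and 3. The WT libraries were spread widely, with WT replicate 3 the lowest, but even that library was 1.76 times the KO mean. The WT mean was 248 ± 107 FPKM and the KO mean 78.5 ± 3.54 FPKM (SD, n = 3 for both), 3.16-fold apart. Its edgeR log2 fold change was -1.60 (SE 0.36, adjusted p = 0.00613), and -0.91 (edgeR adjusted p = 0.0393) with RLE factors. Of 8 annotated protein-coding Cyp4a genes, 2 had a row, so the rest of the cluster was not analysed here. Reads of Cyp4a31 are open to mixing with its neighbours. Of all stretches of 50 bases in its longest coding transcript, 21.8% also occurred in a transcript of another gene, and 15.5% in Cyp4a32. At 100 bases the share was 8.22%. For Cyp4a14 the share was 0.245% at 50 bases, in a Cyp4a pseudogene, and 0% at 100 bases. The sources used here do not say how shared reads were assigned.

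Aldh3a2 (ENSMUSG00000010025, chromosome 11, 61223417 to 61267464, minus strand) encodes the microsomal dehydrogenase that turns long-chain fatty aldehydes into acids. It stood at 301.8, 219.3 and 133.7 FPKM in WT replicates 1, 2 and 3, and at 73.9, 81.4 and 67.5 FPKM in KO replicates 1, 2 and 3. WT replicate 1 was highest and WT replicate 3 lowest of the WT group, at 1.80 times the KO mean. The WT mean was 218 ± 84.0 FPKM and the KO mean 74.2 ± 6.98 FPKM (SD, n = 3 for both), a 2.94-fold difference. Its edgeR log2 fold change was -1.57 (SE 0.37, adjusted p = 0.00673), and -0.88 (edgeR adjusted p = 0.0419) with RLE factors. Aldh3a2 was the single gene with a row among 14 alcohol and aldehyde dehydrogenases that can complete the pathway.

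Por (ENSMUSG00000005514, chromosome 5, 135670033 to 135735326, plus strand) encodes the flavoprotein that feeds electrons to all microsomal P450s. It stood at 346.5, 415.4 and 249.4 FPKM in WT replicates 1, 2 and 3, and at 130.4, 184.4 and 152.6 FPKM in KO replicates 1, 2 and 3. Here WT replicate 2 was highest, and WT replicate 3 was again lowest but 1.60 times the KO mean. The WT mean was 337 ± 83.4 FPKM and the KO mean 156 ± 27.1 FPKM (SD, n = 3 for both), 2.16-fold apart. The edgeR log2 fold change of -1.07 (SE 0.33, adjusted p = 0.0136) was the smallest of the 5 in size. Por did not pass when KO replicate 1 was left out (edgeR adjusted p = 0.0536), when KO replicate 3 was left out (0.0548), or under any scaling that takes most listed genes as unchanged. Its log2 fold change was then -0.82 with TMM factors (edgeR adjusted p = 0.0508), and -0.43 both with RLE factors (edgeR adjusted p = 0.26) and with DESeq2's own size factors (DESeq2 adjusted p = 0.254). Of 7 genes for electron donors of microsomal P450s, cytochrome b5 genes included, Por was the single one with a row.

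Cyp4f14 (ENSMUSG00000024292, chromosome 17, 32905070 to 32917342, minus strand) encodes a CYP4F hydroxylase known for breaking down leukotriene B4 and the side chain of vitamin K. It stood at 18.7, 20.0 and 24.2 FPKM in WT replicates 1, 2 and 3, and at 53.4, 44.0 and 47.7 FPKM in KO replicates 1, 2 and 3. Every KO library was above every WT library, and WT replicate 3 was the WT library nearest to KO. The WT mean was 21.0 ± 2.85 FPKM and the KO mean 48.4 ± 4.77 FPKM (SD, n = 3 for both), so KO was 2.31-fold higher. Its edgeR log2 fold change was 1.19 (SE 0.29, adjusted p = 0.00739), and 1.83 (edgeR adjusted p = 0.00222) with RLE factors. In the authors' deposited table Cyp4f14 had the lowest FDR of the 5 genes, 3.46e-09, although Cyp4a14, with an FDR of 0.00178 there, differed by more. The WT values of Cyp4f14 varied by 13.6% (SD over mean, n = 3) and those of Cyp4a14 by 62.4%. Cyp4f14 was much the least abundant member per length in WT, where the ratio of Cyp4a14 FPKM to Cyp4f14 FPKM was 264, 244 and 41.8 in replicates 1, 2 and 3. In KO that ratio was 18.2 to 21.7, so WT replicate 3 was closer to KO than to the other WT libraries.

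**Figure D2:**
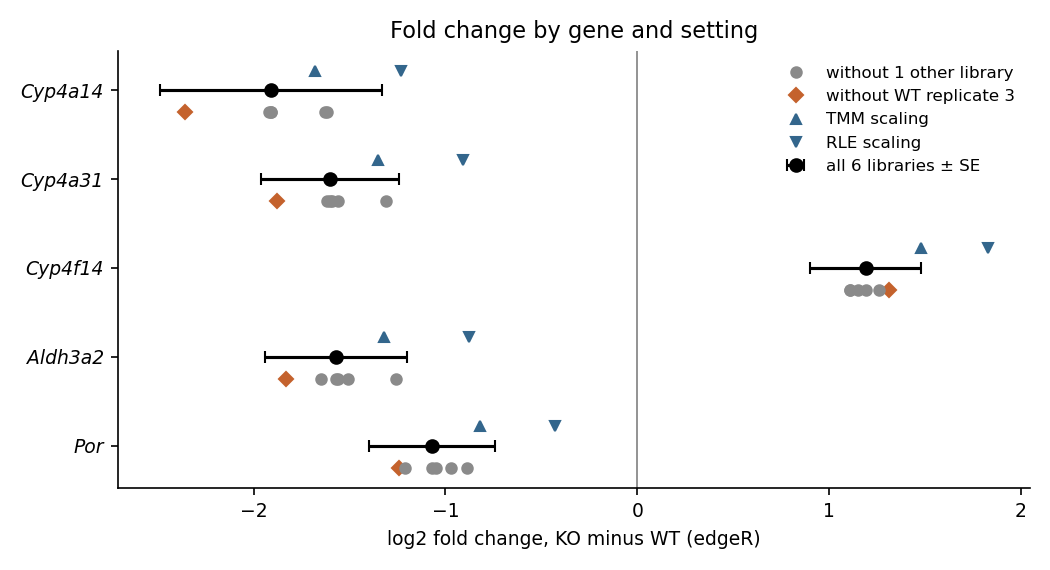
Log2 fold change of KO over WT for each gene from edgeR: black points with bars are the estimate ± SE from all 6 libraries, grey points and orange diamonds leave out 1 library, and blue triangles use other scalings. No point crosses 0, the 4 lower genes move furthest from 0 without WT replicate 3 (Cyp4a14 to -2.36), and TMM or RLE scaling shifts all 5 genes upward.

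The levels per length kept 1 order for the extremes in every library, with Cyp4a14 highest and Cyp4f14 lowest. Por came second in 5 of the 6 libraries, while Cyp4a31 (352.2 FPKM) and Por (346.5 FPKM) were level in WT replicate 1. Cyp4a31 and Aldh3a2 were close neighbours: the ratio of Cyp4a31 FPKM to Aldh3a2 FPKM was 1.12 ± 0.0761 across the WT libraries and 1.07 ± 0.146 across the KO libraries (SD, n = 3 for both), and lay between 0.917 and 1.21 in all 6 libraries. Cyp4a31 was above Aldh3a2 in all 3 WT libraries and in 2 of the 3 KO libraries. The means of the 2 genes differed by less than the SD of either gene in WT, and in KO by less than that of Aldh3a2 but more than that of Cyp4a31. Cyp4a14 did not keep such a ratio. It was 13.99, 19.2 and 7.32 times Cyp4a31 in WT replicates 1, 2 and 3, and 11.6 to 12.8 times in KO. Relative to Por, Cyp4a14 stood at 14.2, 11.8 and 4.05 in the WT libraries and at 5.16 to 7.45 in KO, and the groups overlapped. Aldh3a2 relative to Por ran from 0.528 to 0.871 in WT and from 0.442 to 0.567 in KO, also overlapping.

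The place of WT replicate 3 was set on a scale where 0 is the KO mean and 1 the mean of WT replicates 1 and 2, from log2(FPKM + 1). Cyp4a14 was at 0.0325, Cyp4a31 at 0.42, Aldh3a2 at 0.473 and Por at 0.533. Cyp4f14, for which the scale runs upward to KO, was at 0.759. The median over the 233 listed genes lower in KO was 0.815 (quartiles 0.426 and 1.73), and 5 of them lay below Cyp4a14. WT replicate 3 was above the mean of WT replicates 1 and 2 in 98 of those genes. All 4 lower members were thus below the median gene, with Cyp4a14 at the end of the range. The median over the 156 listed genes higher in KO was 0.603 (quartiles 0.406 and 0.853), and 104 of them lay below Cyp4f14. In log2 units WT replicate 3 exceeded the KO mean by 0.08 in Cyp4a14, 0.81 in Cyp4a31, 0.84 in Aldh3a2 and 0.69 in Por. WT replicates 1 and 2 exceeded it by 2.36, 1.92, 1.78 and 1.29 in the same order. This was the library with the high macrophage markers and the high Lcn2.

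**Figure D3:**
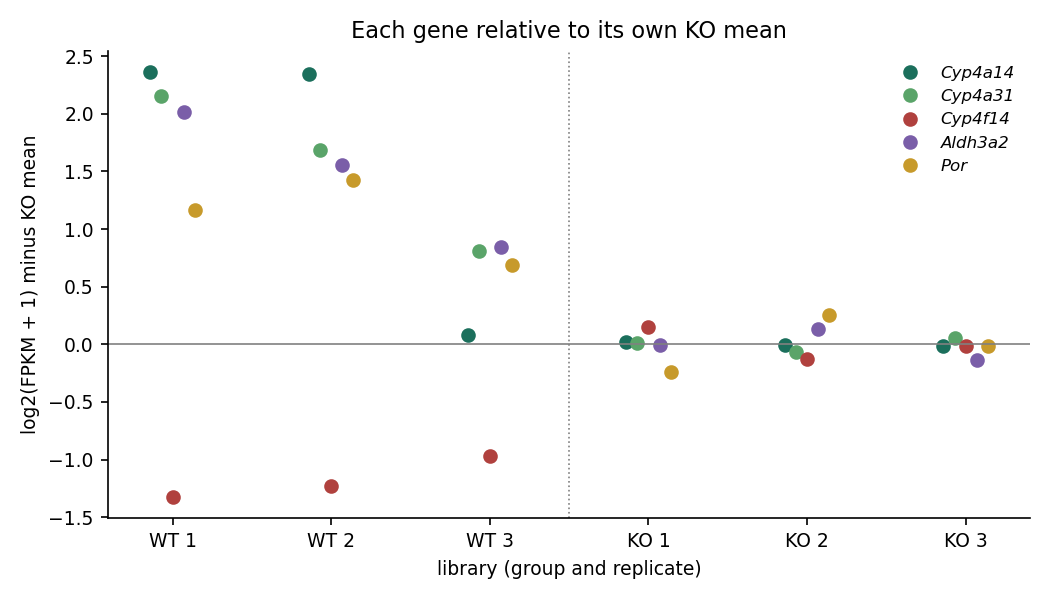
Log2(FPKM + 1) of each gene in each library minus that gene's KO mean, with 1 colour per gene and points set slightly apart. Cyp4a14 averages 2.36 in WT replicates 1 and 2 and drops to 0.08 in WT replicate 3, the other lower genes hold 0.69 to 0.84 there, and Cyp4f14 is below 0 in every WT library.

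**Figure D4:**
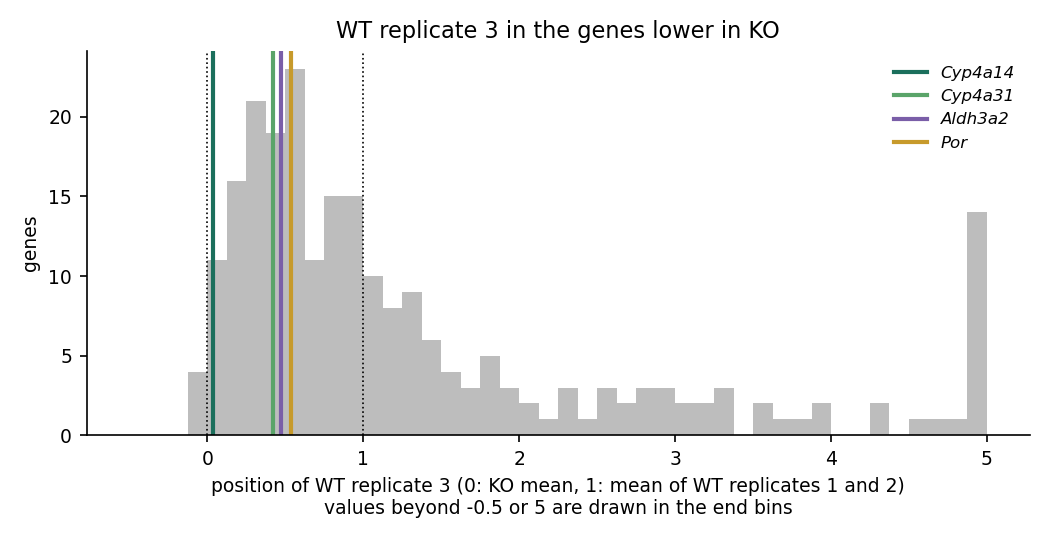
Number of the 233 listed genes lower in KO (grey bars) by the place of WT replicate 3 between the KO mean (0) and the mean of WT replicates 1 and 2 (1), with 13 genes over 5 drawn in the last bin. Coloured lines mark the 4 members, from Cyp4a14 at 0.0325 to Por at 0.533, all left of the median of 0.815.

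KO libraries were close to each other in Cyp4a14 and Cyp4a31, while the KO spread of Por was near the median of the listed genes. The KO spread of Cyp4a14 was 1.29% (SD over mean, n = 3), and 3 of the 389 listed genes had a smaller one. It was 4.51% in Cyp4a31, 9.40% in Aldh3a2, 9.87% in Cyp4f14 and 17.4% in Por, against a median of 18.2% over the listed genes. Counting error for Cyp4a14, at 50601 to 52584 reads in KO, is 0.44%. In WT the spread of Cyp4a14, 62.4%, was larger than that of 321 listed genes.

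Among the 389 listed genes, those most like each member were taken by Pearson's r of log2(FPKM + 1) over the 6 libraries, which share their groups, so high values follow in part from the selection. Cyp4a14 was nearest to Mgll (r = 0.998), which encodes monoglyceride lipase, then to Acad11 (0.996) and Cpt1b (0.995), an acyl-CoA dehydrogenase and a carnitine acyltransferase gene. Mgll stood at 108.4, 110.8 and 41.1 FPKM in WT replicates 1, 2 and 3 and 37.0 to 40.0 in KO, the same outline as Cyp4a14 with a smaller fold. Aldh3a2 was nearest to Gk (0.994), the glycerol kinase gene, Elovl2 (0.994), a fatty acid elongase gene, and Pdzrn3 (0.992). Cyp4a31 was nearest to Pnldc1 (0.999), Paqr9 (0.994) and the lactate dehydrogenase gene Ldha (0.993). For Por these were Gfra1 (0.994), Slc25a34 (0.993) and the triglyceride lipase gene Pnpla2 (0.991). For Cyp4f14, higher in KO, they were Zfp119b (0.992), Ppp1r3b (0.989), whose product targets a phosphatase to glycogen, and Slc30a10 (0.988). Pnldc1 (0.13 to 0.24 FPKM in KO), Cpt1b (0.34 to 0.49 in KO) and Zfp119b (0.33 to 0.49 in WT) were near the floor. Adding 1 flattens differences at such levels, so their r values are less telling.

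Some genes linked to peroxisomal oxidation, which can shorten dicarboxylic acids, were also among the listed genes lower in KO. Of 31 genes for dicarboxylic acid activation and peroxisomal oxidation, 7 had a row, and all 7 passed as lower, with a median log2 fold change of -1.33. Of all listed genes 59.9% passed as lower, and the median of the lower ones was -1.43. Genes without a row were not analysed here, so these 7 do not describe the list as a whole. Among them were Ehhadh (-2.90), the bifunctional enzyme gene that dicarboxylic acids need, Crat (-1.91), the thiolase gene Acaa1a (-1.33), Crot (-1.28), Decr2 (-1.10) and the peroxisome proliferation gene Pex11a (-1.08). Ehhadh stood at 1209, 906.8 and 169.2 FPKM in WT replicates 1, 2 and 3 and at 86.1 to 116.8 in KO, so WT replicate 3 was again low. Of 9 genes for PPARA and its partners, 2 had a row. Ppara, the receptor gene, stood at 24.9, 20.6 and 18.4 FPKM in WT replicates 1, 2 and 3 and at 8.79 to 11.2 in KO (edgeR log2 fold change -1.07, SE 0.29, adjusted p = 0.00931). WT replicate 3 was at 0.744 on the scale above for Ppara, far nearer the other WT libraries than for Cyp4a14. Ppargc1a, a coactivator gene, had a log2 fold change of -1.52 and WT replicate 3 at 0.226. Of 16 nuclear receptors and partners of P450 genes, Nr0b2 had a row (-1.14).

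Few other P450 genes were in the table. Of 79 protein-coding P450 genes outside the CYP4 family list, 6 had a row, of which 4 passed as higher and 1 as lower, against 39.8% and 59.9% of all listed genes. Cyp26a1, for retinoic acid breakdown, rose (log2 fold change 2.28), as did Cyp2c70 (1.88) and Cyp7a1 (1.38), for bile acid synthesis, and Cyp2c54 (1.36). Cyp51, for sterol synthesis, did not pass (1.20, edgeR adjusted p = 0.0565). Cyp3a44, the one lower gene (-3.64), stood at 16.6, 4.81 and 77.0 FPKM in WT replicates 1, 2 and 3 and at 0.67 to 4.30 in KO, so WT replicate 3 was its highest library and the lowest WT library of the Cyp4a genes. Of 8 other enzymes that draw on Por or cytochrome b5, Fads2 was lower (-1.26), and Cyp51 was the second with a row. By the pathway names in the authors' deposited table, 8 listed genes belonged to fatty acid degradation, Cyp4a14, Cyp4a31 and Aldh3a2 among them, and all 8 were lower in KO, against 59.9% of listed genes called lower. Of 8 in arachidonic acid metabolism, 6 were higher, Cyp4f14 among them, and the other two were the Cyp4a genes, against 39.8% of listed genes called higher. Both counts include members and genes selected on this comparison.

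**Figure D5:**
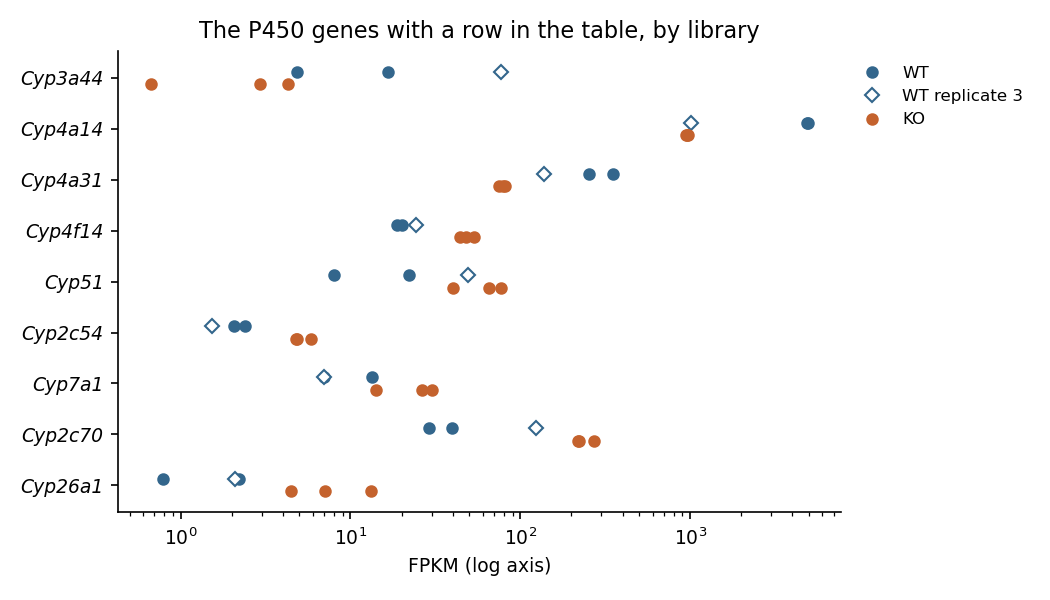
FPKM on a log axis for the 9 P450 genes with a row, each library 1 point, with WT in blue (replicate 3 as an open diamond) and KO in orange, ordered by log2 fold change. The Cyp4a genes and Cyp3a44 are lower in KO and the other six are higher on average, and the open diamond lies at the KO points for Cyp4a14 but far above them for Cyp3a44.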

How the data were processed

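Liver RNA of 3 Usp28 KO and 3 WT samples was sequenced. Whole-number read counts and FPKM per gene and library were deposited by the authors, per the file headers, with mean FPKM, log2 fold change, p-value and FDR. The submitters' processing notes name fastp 0.18.0, HISAT2, StringTie 1.3.1 and RSEM. The sources used here give neither their roles nor the genome build nor the use of strand. Depth was recovered from 38 to 51 genes per library as the median of count divided by the product of FPKM and length (1 annotated transcript, minimum 50 counts and 1 FPKM).

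Counts of all 389 listed genes were tested with edgeR 4.0.16 (R 4.3.3, quasi-likelihood test, recovered depth, no filter, Benjamini-Hochberg over the 389 genes). The SE is the absolute log2 fold change over the root of the F statistic. The members, the gene lists, the marker lists and the place of WT replicate 3 were chosen with earlier results of these data known. Within each list, up to 6 genes with the largest absolute fold change were to be named, and for each member the 3 genes most like it. Pex11a was named beyond that rule. Some genes under these rules are not reported here. On counts simulated for the 389 genes of this comparison, edgeR found 42 of the 100 genes made to differ by 1 on the log2 scale and 99 of the 100 made to differ by 2, and called 4 of the 189 genes without a difference. Every simulated gene had the same dispersion in KO and WT. The median spread of the listed genes was 39.4% in WT and 18.2% in KO (SD over mean), so these rates do not carry over to the members. Alternatives were TMM and RLE scaling, DESeq2 1.42.0, limma 3.58.1 on log2(FPKM + 1) and log2(FPKM + 0.1), a low-count filter, a replicate block, and leaving out each library. No 2 replicates matched within counting noise (45.1 to 1005 for chi-square divided by its degrees of freedom). Symbols and IDs are the table's, and 388 of 389 IDs matched GENCODE M21 (GRCm38), the source of positions and transcripts. Of the 5 members, 3 matched the RefSeq promoter table.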

Additional observations from a re-analysis of the deposited data

How the results depend on the processing

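No member changed direction under any alternative run, and of 75 member results under alternatives 63 stayed past the threshold and 12 did not. All 5 members passed in edgeR, as did 388 of the 389 listed genes, and in limma, as did 359 to 376 of them. With RLE scaling 3 members passed (without Cyp4a14 and Por), against 236 listed genes. The median member was then at -0.88, as with DESeq2's own size factors. Those scalings take most listed genes as unchanged and raise the median of all listed genes by 0.66 (TMM by 0.27). Relative to that median Cyp4a14 stayed at -0.78 to -0.85 and Por at 0.01 to 0.03. They turn the share of called genes that are higher from 39.9% to 66.1% (RLE) and 65.3% (DESeq2). P-values were also adjusted over 16198 genes, the number implied by the deposited FDR. In edgeR 0 members passed (5 at an unadjusted p under 0.05, adjusted p from 0.255 to 0.568). In limma 0 passed, and in DESeq2 4 did (all but Por). Of the 389 listed genes, 5 passed in edgeR, 2 in limma and 153 in DESeq2. Genes without a row were ranked as unchanged there, so these counts are lower limits. Leaving out 1 library left 4 or 5 members, against 278 to 372 of the 389 listed genes, and a member median of -1.26 to -1.83. With the replicate block, all 5 members passed, as did 382 of the 389 listed genes, and the member median was -1.50. Same-numbered libraries did not deviate together over the listed genes (correlations 0.01, 0.08 and -0.04). With few libraries and selected genes, this cannot decide whether the numbers pair the samples, and the labels do not say. For Cyp4a31, reads per FPKM and depth varied by 11.9% between libraries, so its counts and FPKM differ slightly.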

Other observations

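The genes in which WT replicate 3 lay nearest to KO or beyond it were named after their values were seen. Of the 233 listed genes lower in KO, 12 had that library under 0.1 on the scale from the KO mean to the other WT libraries. Hsd17b11, a lipid droplet dehydrogenase gene, stood at 228.7, 200.2 and 69.6 FPKM in WT replicates 1, 2 and 3 and at 69.8 to 76.2 in KO. Asl, the urea cycle gene for argininosuccinate lyase, stood at 542.5, 918.5 and 246.2 FPKM in WT and at 242.6 to 251.1 in KO. Fabp1, the liver fatty acid carrier gene, stood at 4741, 2503 and 1458 FPKM in WT and at 1195 to 1420 in KO. In these genes, as in Cyp4a14, the difference between the groups was carried by WT replicates 1 and 2.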
